A study of Homo sapiens with 8 samples.

Results

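The activator protein 1 (AP-1) and immediate early factors described here are 10 genes, FOS, FOSB, FOSL1, FOSL2, JUN, JUNB, JUND, ATF3, EGR1 and IER3, out of 20296 genes that the array's probes named. They were chosen by name, and each was read from its probe with the highest mean level over the 8 arrays. All 10 were found, and all 10 were well above background on all 8 arrays, so no member was lost to a filter on dim signals. AP-1 is a dimer of basic leucine zipper (bZIP) proteins: FOS family members pair with JUN family members, JUN proteins also pair among themselves or with ATF proteins, and the dimers bind short sites in promoters and enhancers. EGR1 is a zinc finger transcription factor and IER3 a small stress-inducible protein. Most of these genes are immediate early genes, which means that existing kinases and transcription factors switch them on within minutes of a growth signal or stress, usually as a short pulse, and several are also known to respond to DNA damage.

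RNA came from MCF10A, an immortal line of human breast epithelium that forms no tumours, with intact p53 (p53+/+) or without it (p53-/-). Cells were left untreated (0 h) or exposed for 2 h to adriamycin (ADR, doxorubicin), a topoisomerase poison that breaks DNA, and were harvested at 12, 24 and 48 h. The dose is 0.5 µg/ml in the sample labels, and the methods of the study state another dose. Each combination of genotype and time was 1 array, so each group is 1 sample, and how the p53-/- line was made or how many clones it holds is not given in the sources used here. A level is the log2 processed signal of a gene's probe relative to the array's own 75th percentile, so 0 lies at that percentile. A difference of at least 2-fold (1 on the log2 scale) is called a rise or fall, a size rule and not a test. The technical SD of a member's log2 difference, from probes printed in 10 spots, was between 0.055 and 0.18 and does not include differences between cultures. The 75th percentile signal was between 661 and 1199, and between 49.8% and 62.9% of probes were well above background. Spike-in control probes were above background for 6 of 10 on 7 arrays and for 0 of 10 on the p53+/+ 48 h array. All arrays lay on 1 slide, with the p53-/- arrays in one column of positions and the p53+/+ arrays in the other, so genotype cannot be told apart from slide position.

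One array stood with the arrays of the other genotype. FDXR, a mitochondrial reductase gene and known p53 target, read 1.74, 1.56, 2.42 and 2.40 on the p53-/- arrays at 0, 12, 24 and 48 h. It read 6.22, 7.04 and 6.91 on the treated p53+/+ arrays. The array labelled p53+/+ 0 h gave 1.72, at the level of the p53-/- arrays. DCN, a matrix proteoglycan, read 5.75 there against 5.70 to 6.07 on the p53-/- arrays and 2.09 to 2.37 on the treated p53+/+ arrays. CDH1, the epithelial cadherin, read -3.13 there against -3.55 to -0.94 and 1.42 to 2.10. Of 1027 probes that were at least 2-fold higher on every treated p53+/+ array than on every p53-/- array, 995 (96.9%) lay nearer the p53-/- level on it, and so did 598 of 640 probes (93.4%) that were lower. It is called the array labelled p53+/+ 0 h throughout, and changes in p53+/+ cells were read mainly among treated arrays, which do not need it. Cell type markers also differed between the genotypes. Of 6 basal mammary markers 5 or 6 were above background on each array, among them the keratins KRT5, KRT14 and KRT17 on all 8, and of 6 luminal markers 5 or 6. The summed linear level of the epithelial markers CDH1 and EPCAM was 0.163 to 1.14 on the p53-/- arrays, 0.228 on the array labelled p53+/+ 0 h and 4.91 to 6.91 on the treated p53+/+ arrays, in units of the 75th percentile signal. The basal sum was 38.5 to 58.0, 67.2 and 160 to 212 on the same arrays, and the luminal sum 39.3 to 64.4, 39.8 and 66.8 to 95.1. For 4 fibroblast markers it was 52.0 to 67.1, 54.0 and 4.31 to 5.22, nearly all of it DCN. The fibroblast collagen COL1A2 was above background on 0 arrays, COL1A1 on the 4 p53-/- arrays and the array labelled p53+/+ 0 h, and PDGFRB on 3 p53-/- arrays. The part of these marker differences in the genotype differences below was not tested. In bulk RNA, fewer cells of a type and less RNA per cell cannot be told apart.

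**Figure D1:**
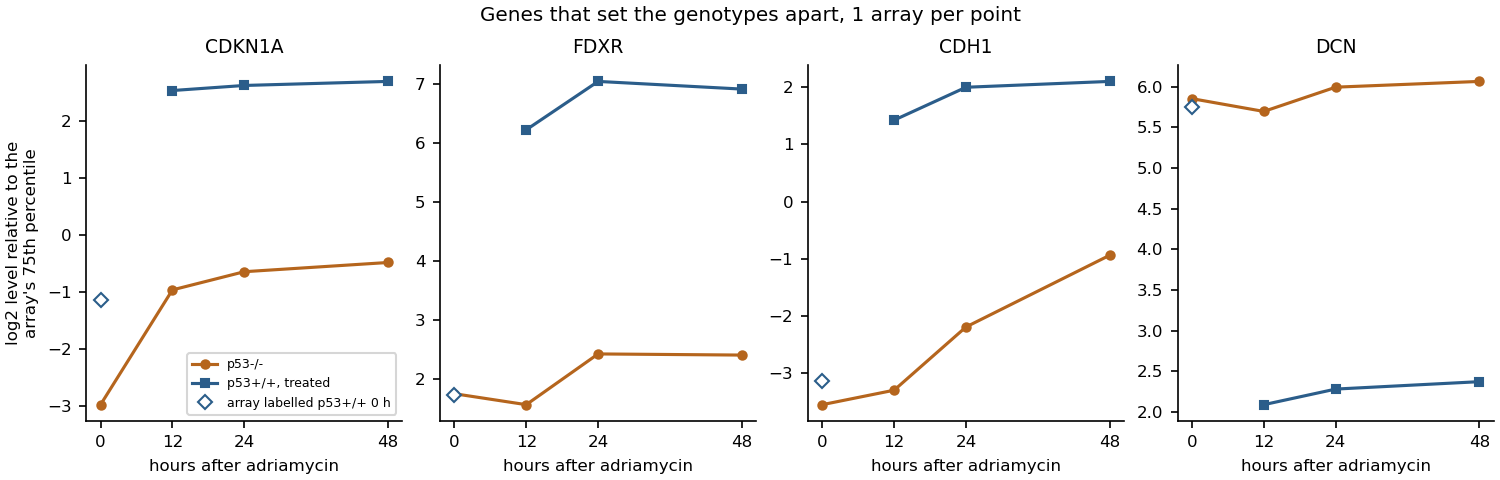
Log2 level relative to the array's 75th percentile (vertical axis) of CDKN1A (the p53-induced cell cycle inhibitor p21), FDXR, CDH1 and DCN against hours after ADR, with 1 array per point. The open diamond is the array labelled p53+/+ 0 h, which reads 1.72 for FDXR and 5.75 for DCN, at the level of the p53-/- arrays. For CDKN1A it reads -1.14, against -2.97, -0.96, -0.64 and -0.48 on the p53-/- arrays at 0, 12, 24 and 48 h. The treated p53+/+ arrays read 2.54 to 2.70 for CDKN1A.

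Promoters of 8 of the 10 genes were in the RefSeq table (GRCh38.p14); FOSL1 and IER3 were not matched. The 140 bases before the annotated start are shown for the genes whose levels differed most between arrays and for EGR1, in the direction of transcription, with motif letters in capitals: TGACG, a part of the cAMP response element (CRE) that ATF and CREB dimers bind, on either strand, its octamer variant TGACATCA, and the CArG box that serum response factor binds.
FOS (chr14:75278688-75278827, plus strand): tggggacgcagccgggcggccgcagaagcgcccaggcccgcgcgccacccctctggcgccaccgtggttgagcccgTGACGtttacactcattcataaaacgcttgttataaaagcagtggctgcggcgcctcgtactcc
FOSB (chr19:45467856-45467995, plus strand): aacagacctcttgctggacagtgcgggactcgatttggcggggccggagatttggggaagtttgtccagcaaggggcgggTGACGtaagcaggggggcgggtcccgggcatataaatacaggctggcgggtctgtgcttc
JUN (chr1:58784048-58784187, minus strand): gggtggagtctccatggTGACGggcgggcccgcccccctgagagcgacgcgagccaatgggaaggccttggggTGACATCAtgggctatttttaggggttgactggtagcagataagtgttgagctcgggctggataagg
ATF3 (chr1:212565267-212565406, plus strand): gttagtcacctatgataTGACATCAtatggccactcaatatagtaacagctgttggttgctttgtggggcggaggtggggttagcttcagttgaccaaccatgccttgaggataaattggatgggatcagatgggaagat
EGR1 (chr5:138465339-138465478, plus strand): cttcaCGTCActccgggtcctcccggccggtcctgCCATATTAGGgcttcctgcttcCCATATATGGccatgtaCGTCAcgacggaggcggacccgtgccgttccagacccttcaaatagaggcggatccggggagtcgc

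These letters describe the promoters and are not shown to be bound. In the 250 bases before the start, TGACG or its reverse complement stood in 7 of the 8 genes (FOS, FOSB, FOSL2, JUN, JUNB, JUND and EGR1), against 21.2% of 35116 promoters of all genes. It also stood in 15 of 26 other immediate early genes. A gene was counted if any of its promoters held the motif, while the share is over promoters. The full palindrome TGACGTCA, which holds TGACG on both strands, stood in JUND and in 1.65% of all promoters. TGACATCA, searched on both strands, stood in JUN and ATF3 and in 2.37% of all promoters. The CArG box stood in EGR1, where it occurred 2 times, and in 1.16% of all promoters. Among the 26 other immediate early genes TGACGTCA stood in 3, TGACATCA in 1 and the CArG box in 1. The AP-1 site TGACTCA (either strand) stood in 0 of the 8 genes and 4.20% of all promoters, and the decamer that p53 binds in pairs in 0 of the 8 and 5.57%. An EGR site, GCGTGGGCG on either strand, stood in 0 of the 8 and 0.720%. ATF3 has 2 starts in the table, and the motif stood before the upstream start, which is the promoter printed above. The region before the other start ends at chr1:212615017. Any further start of ATF3 was not scanned, so motifs not found for ATF3 are absent from these 2 regions only.

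FOS, the founding member of the FOS family and a partner of JUN proteins, ran a different course in each genotype. The p53-/- arrays gave -0.44, -0.53, 0.086 and 0.96 at 0, 12, 24 and 48 h. The treated p53+/+ arrays gave 1.38, 1.18 and 0.83 at 12, 24 and 48 h, and the array labelled p53+/+ 0 h read -0.73. It thus climbed late in p53-/- cells, by 2.63-fold at 48 h, and was already high at 12 h in p53+/+ cells. The treated p53+/+ array exceeded the p53-/- array by 3.77-fold at 12 h and 2.13-fold at 24 h, and at 48 h the levels differed by -0.13 (p53+/+ minus p53-/-) on the log2 scale, or -0.99 without scaling between arrays. The 24 h difference fell under 2-fold with median scaling, without scaling, with spike-in scaling and with normexp background correction. With quantile normalization it stayed above 2-fold. The 12 h difference stayed above 2-fold with all of these.

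FOSB encodes the FOS relative whose truncated splice form persists in stimulated neurons. It was the member with the largest single change in p53-/- cells. Its level there was -3.90, -3.05, -2.76 and -0.46 at the 4 times, a 10.8-fold rise at 48 h, most of it between 24 and 48 h (4.91-fold). In treated p53+/+ cells it was -2.44, -2.33 and -3.29, so it was lowest at the time when it was highest in p53-/- cells. At 48 h the p53+/+ array was 7.09-fold below the p53-/- array. FOSB was a dim probe, and with normexp background correction its 48 h rise in p53-/- cells was 2.28 on the log2 scale in place of 3.44 and the 48 h genotype difference -1.89 in place of -2.83. The array labelled p53+/+ 0 h read -2.01, above all the treated p53+/+ arrays and 3.70-fold above the p53-/- 0 h array, so the size of any change in FOSB depends on which 0 h array is used.

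FOSL1 (FRA-1) and FOSL2 (FRA-2) lack the activation domain of FOS and are expressed for longer after a stimulus. FOSL1 moved little: 0.49, 1.14, 0.80 and 1.10 at the 4 times in p53-/- cells, 1.14, 1.02 and 0.84 in treated p53+/+ cells, and 1.29 on the array labelled p53+/+ 0 h. None of its differences between genotypes or from 0 h reached 2-fold under the scaling used. FOSL2 was -1.47, -1.40, -0.88 and -1.02 in p53-/- cells. In treated p53+/+ cells FOSL2 was -1.17, -0.55 and 0.10, and the array labelled p53+/+ 0 h read -1.25. Under the scaling used, FOSL2 therefore increased step by step in p53+/+ cells, by 2.42-fold from 12 to 48 h. It was 2.18-fold above p53-/- cells at 48 h, a difference that was 0.27 on the log2 scale without scaling between arrays.

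JUN, the main AP-1 partner of FOS and a substrate of the JNK kinases, rose in p53-/- cells at every time. Its level was 0.27, 1.57, 1.42 and 1.87 at the 4 times, and the treated arrays lay 2.46-, 2.21- and 3.02-fold above 0 h. In treated p53+/+ cells JUN was 0.44, 1.18 and 1.59, and under the scaling used it increased by 2.22-fold from 12 to 48 h. At 12 h it was thus 2.18-fold lower in p53+/+ than in p53-/- cells, and by 48 h the difference was -0.27 on the log2 scale, or -1.13 without scaling between arrays. The array labelled p53+/+ 0 h read 1.63, as high as the treated p53-/- arrays and 2.57-fold above the p53-/- 0 h array. Against it JUN fell 2.28-fold at 12 h in p53+/+ cells, whereas against the p53-/- 0 h array the same p53+/+ array was 0.17 higher on the log2 scale.

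JUNB, which can oppose JUN in growth control, was lower in p53+/+ than in p53-/- cells at each treated time. Its level was -0.55, -0.50, -0.74 and -0.35 in p53-/- cells, -1.46, -1.27 and -1.25 in treated p53+/+ cells, and -0.54 on the array labelled p53+/+ 0 h. The 3 treated arrays of each genotype did not overlap, as for 41.4% of all probes tested. The p53+/+ arrays were lower by 0.96, 0.53 and 0.91 on the log2 scale at 12, 24 and 48 h, each under 2-fold. The 12 h difference passed 2-fold with median scaling, without scaling, with quantile normalization and with spike-in scaling, and did not with normexp. JUND, the most constantly expressed JUN protein in many cells, was -2.0, -1.95, -1.59 and -1.28 in p53-/- cells and -1.73, -1.45 and -1.43 in treated p53+/+ cells, with -2.21 on the array labelled p53+/+ 0 h. JUND stayed within 1.90-fold over all 8 arrays, and its genotypes overlapped.

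**Figure D2:**
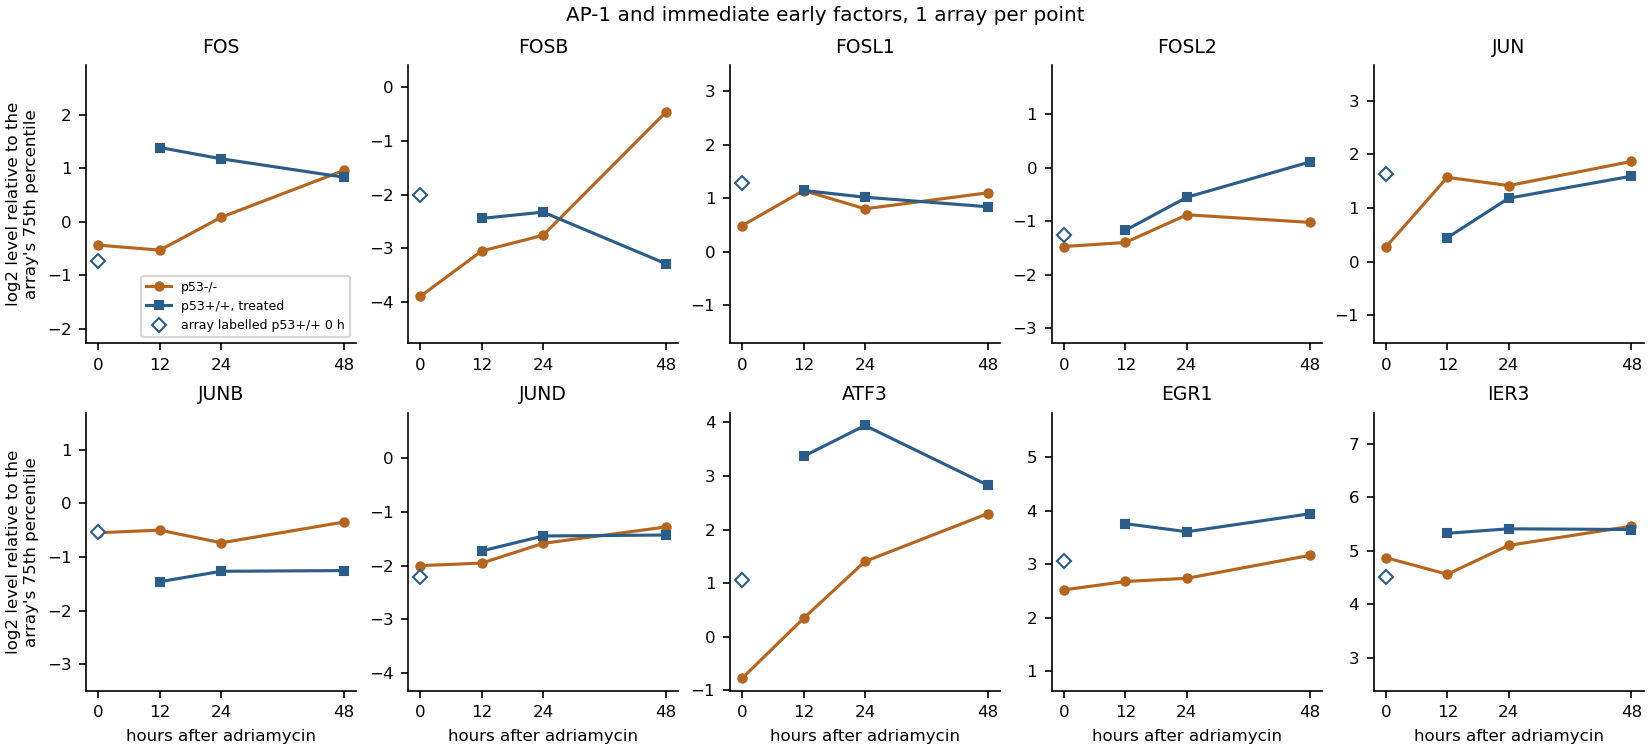
Log2 level relative to the array's 75th percentile (vertical axis, the same span in every panel) against hours after ADR for each of the 10 genes, with 1 array per point. Lines join the 4 p53-/- arrays and the 3 treated p53+/+ arrays, and the open diamond is the array labelled p53+/+ 0 h. ATF3 lies above the p53-/- line in p53+/+ cells at all treated times, JUNB below it, and the FOS and FOSB lines cross between 24 and 48 h.

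ATF3, a stress-induced bZIP repressor or activator that pairs with JUN proteins, had the widest range of the 10 genes, 26.2-fold over the 8 arrays. In p53-/- cells its level rose at each time, from -0.77 at 0 h to 0.34, 1.41 and 2.30. In treated p53+/+ cells it was 3.37, 3.94 and 2.83, and the array labelled p53+/+ 0 h read 1.06. ATF3 was therefore 2.17-, 4.52- and 8.40-fold above 0 h in p53-/- cells, and was 8.12-fold higher in p53+/+ than in p53-/- cells at 12 h and 5.80-fold higher at 24 h. By 48 h the difference had narrowed to 1.44-fold, with a 1.86-fold increase from 24 h in p53-/- cells and a 2.17-fold decrease in p53+/+ cells, and without scaling between arrays it was -0.33 on the log2 scale. Every treated p53+/+ array lay above every p53-/- array. For 41.4% of all probes tested the treated arrays of the 2 genotypes did not overlap, in either direction.

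The array names ATF3 with 4 probes, and they did not all move alike. The probe used here ranged over 4.71 on the log2 scale and a probe of the other listed transcript over 3.46. A dimmer probe of the first transcript was above background on 7 of 8 arrays, and it read -4.64, -3.46 and -2.58 on the treated p53-/- arrays and -1.59, -0.98 and -2.66 on those of p53+/+. The remaining probe, in a single spot, lay between -2.85 and -2.15 on all 8 arrays. With the mean of all 4 probes, the p53-/- rise at 12 h was 0.37 on the log2 scale, under 2-fold, and the differences between genotypes at 12 and 24 h were 2.28 and 1.80.

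**Figure D3:**
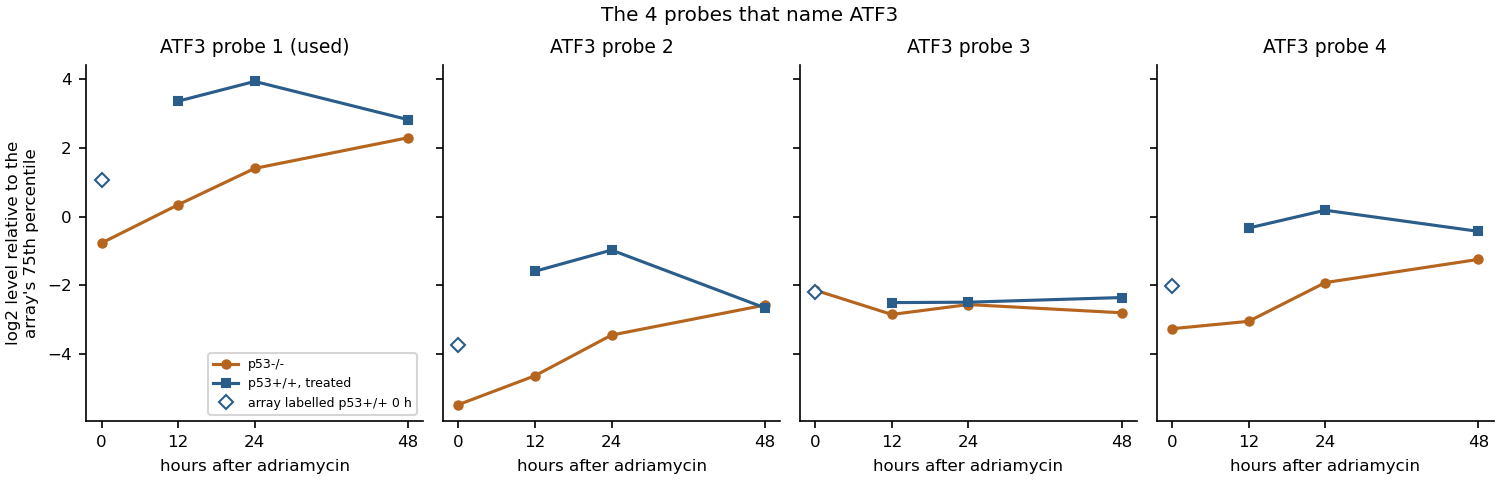
Log2 level relative to the array's 75th percentile (vertical axis) of the 4 probes named for ATF3 against hours after ADR, with 1 array per point and the open diamond for the array labelled p53+/+ 0 h. Probes 1, 2 and 4 are higher at each later time after 12 h in p53-/- cells and lie higher in p53+/+ cells at 12 and 24 h, and probe 3 stays between -2.85 and -2.15.

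EGR1, an immediate early zinc finger factor, was 2.52, 2.68, 2.74 and 3.16 in p53-/- cells. In treated p53+/+ cells EGR1 was 3.76, 3.61 and 3.94, with 3.06 on the array labelled p53+/+ 0 h. The treated arrays of the 2 genotypes did not overlap, as for 41.4% of all probes tested. EGR1 was higher in p53+/+ cells by 2.11-fold at 12 h, 1.83-fold at 24 h and 1.71-fold at 48 h. The 12 h difference fell under 2-fold with median scaling, without scaling and with spike-in scaling, and did not with quantile normalization or normexp. Without scaling between arrays the 48 h difference was -0.083 on the log2 scale. IER3, which modulates cell death and NF-kB signalling, was the brightest probe of the 10. Its level was 4.87, 4.56, 5.10 and 5.46 in p53-/- cells and 5.33, 5.41 and 5.40 in treated p53+/+ cells, with 4.50 on the array labelled p53+/+ 0 h. IER3 did not reach 2-fold in any comparison under the scaling used, and the other probe of the gene ranged over 0.90 on the log2 scale where the probe used ranged over 0.96.

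More members passed 2-fold above 0 h at 48 h than at 12 h in p53-/- cells. At 12 h JUN and ATF3 rose by at least 2-fold, 2 of 10 members where 3.75% of the genes measured did. At 24 h FOSB, JUN and ATF3 rose (3 of 10, against 7.22%; with normexp background correction the FOSB change was 0.47 and not a call), and at 48 h FOS, FOSB, JUN and ATF3 did (4 of 10, against 10.6%). No member fell by 2-fold at any of these times, where 4.95%, 5.15% and 7.31% of genes did. The median log2 change of the 10 members was 0.12, 0.47 and 0.68 at 12, 24 and 48 h, and that of all genes was -0.0025, 0.00059 and 0.080. At 48 h all 10 lay above 0. These rises rest on the p53-/- 0 h array. Between 12 and 48 h, which needs no 0 h array, FOS, FOSB and ATF3 rose by at least 2-fold (2.81-, 6.02- and 3.87-fold) where 9.22% of genes did, and no member fell where 2.83% did. In p53+/+ cells over the same interval FOSL2 and JUN rose, where 6% of genes did, and 0 members fell, where 6.09% did. These rises were 1.27 and 1.15 on the log2 scale, and both were under 2-fold without scaling. Without scaling FOSL2 stood at -0.23 at 12 h and 0.74 at 48 h from the array labelled p53+/+ 0 h, and JUN at -1.50 and -0.66. The 75th percentile signal was 818 on the p53+/+ 12 h array and 661 at 48 h.

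Against the array labelled p53+/+ 0 h, FOS and ATF3 rose at all 3 times in p53+/+ cells and FOSL2 rose at 48 h, where 12.4%, 15.7% and 16.7% of genes rose at 12, 24 and 48 h. JUN fell at 12 h and FOSB at 48 h, where 9.94%, 13.1% and 11.7% of genes fell at the 3 times. The 48 h calls of FOS and FOSL2 were lost without scaling (0.94 and 0.74) and that of FOSB with normexp (-0.61). Since that array stood with the p53-/- arrays, the same arrays were also set against the p53-/- 0 h array. There FOS, ATF3 and EGR1 were at least 2-fold higher at all 3 times, FOSB at 12 and 24 h, and FOSL2 and JUN at 48 h, with no member lower. ATF3 was 17.6-, 26.2- and 12.1-fold higher, at or above 98.8%, 98.5% and 97.7% of the genes measured. EGR1 stood at or above 89.4%, 85.5% and 88.9% of genes, and FOS at 93.6%, 90.3% and 87.3%. For FOSB it was 91.2% and 90.1% at 12 and 24 h, and for FOSL2 and JUN 90.3% and 88.0% at 48 h. The share of all genes past 2-fold was not counted for this comparison. The 2 arrays labelled 0 h differed from each other by at least 2-fold for FOSB, JUN and ATF3, all higher on the array labelled p53+/+ 0 h. In that comparison these genes stood at or above 98.9%, 98.0% and 98.8% of genes.

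Between the genotypes, FOS, ATF3 and EGR1 were at least 2-fold higher in p53+/+ cells at 12 h, FOS and ATF3 at 24 h and FOSL2 at 48 h. Across all genes 12.3%, 12.7% and 15.6% were higher at these times. JUN was lower in p53+/+ cells at 12 h and FOSB at 48 h, where 8.82% and 12% of genes were lower, and no member was lower at 24 h (11.2% of genes). The median difference of the members moved from 0.42 at 12 h and 0.32 at 24 h to -0.14 at 48 h, with medians of 0.048, -0.039 and 0.086 over all genes. At 12 h and at 24 h 8 of the 10 members were above 0, and at 48 h 3 were. These signs depended on the scaling. At 12 h FOSL1 stood at 0.00083, and FOSL1, FOSL2 and JUND were below 0 with median scaling, without scaling and with spike-in scaling. At 24 h FOSB, FOSL1, FOSL2, JUND and IER3 were below 0 without scaling and with spike-in scaling. At 48 h ATF3 and EGR1 were below 0 without scaling. The share of all genes above 0 was not counted. The p53+/+ 48 h array is the array on which no spike-in probe was above background, and the part of this in the 48 h values was not tested.

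**Figure D4:**
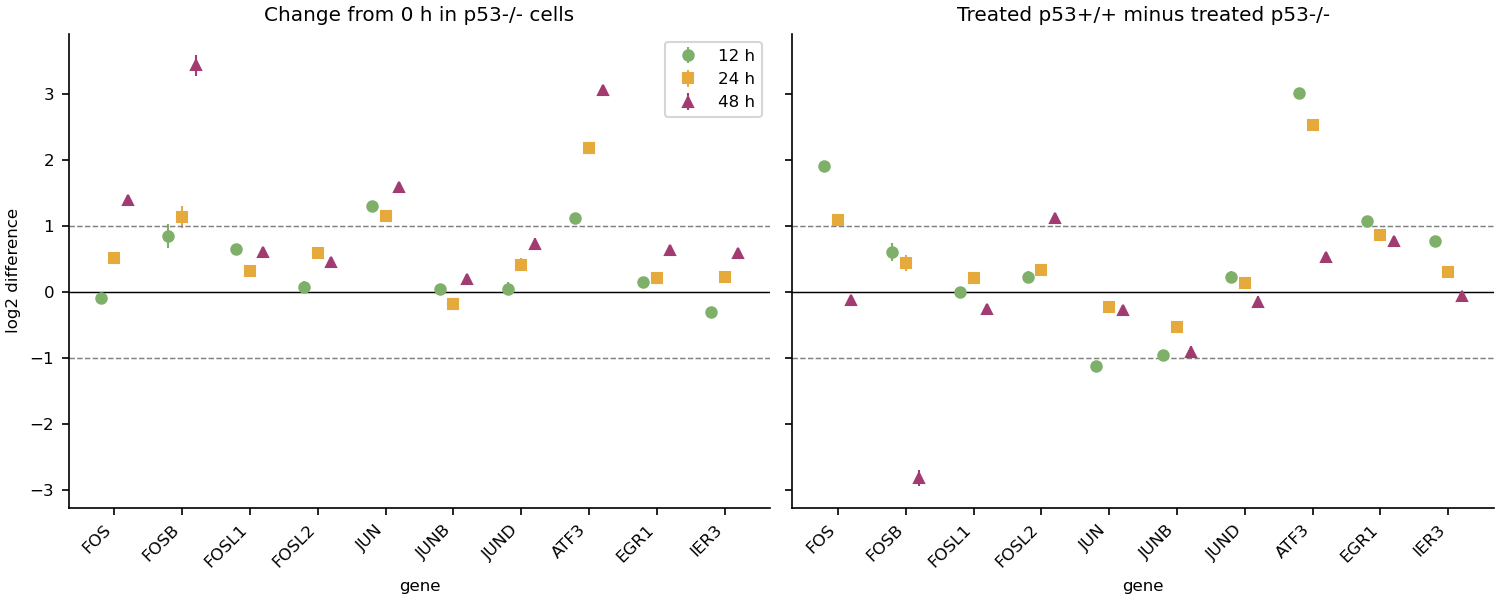
Log2 difference of each of the 10 genes (vertical axis) from 0 h in p53-/- cells (left) and between treated p53+/+ and p53-/- cells (right) at 12, 24 and 48 h. Bars are the technical SD from repeated spots, often smaller than the symbol, and dashed lines mark 2-fold. FOSB and ATF3 reach 3.44 and 3.07 at 48 h on the left, and on the right ATF3 stands at 3.02 at 12 h and FOSB at -2.83 at 48 h.

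The genotype difference was tested with limma over the 6 treated arrays, where the 3 times of a genotype stand in for replicates, so that p describes the difference against movement over time and not against separate cultures. EGR1, ATF3 and JUNB, 3 of the 10 members, passed a Benjamini-Hochberg adjusted p of 0.05 over 28947 probes. EGR1 was higher in p53+/+ cells by 0.91 ± 0.21 (SE) on the log2 scale (adjusted p = 0.0312) and ATF3 by 2.03 ± 0.53 (adjusted p = 0.0432). JUNB was lower by -0.80 ± 0.19 (adjusted p = 0.0323). With time as a block, EGR1 passed (adjusted p = 0.0403) and ATF3 (0.0692) and JUNB (0.0593) did not. The means over 3 treated arrays were 3.77 ± 0.17 (SD) in p53+/+ and 2.86 ± 0.27 in p53-/- cells for EGR1, 3.38 ± 0.56 and 1.35 ± 0.98 for ATF3, and -1.33 ± 0.12 and -0.53 ± 0.20 for JUNB. Of all probes tested, 10.6% passed as higher and 7.4% as lower. The same 3 members were the ones whose treated groups did not overlap, as was the case for 41.4% of all probes. An exact two-sided permutation test of the genotype labels gave p = 0.1 for each of the 3, the smallest that 3 arrays against 3 allow.

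The other 7 members did not pass. FOS differed by 0.96 ± 0.39 (SE, adjusted p = 0.140), FOSL2 by 0.56 ± 0.35 (adjusted p = 0.305), JUN by -0.55 ± 0.32 (adjusted p = 0.282) and FOSB by -0.60 ± 0.70 (adjusted p = 0.599) in the limma fit. IER3 differed by 0.34, JUND by 0.072 and FOSL1 by -0.014. The 3 calls depended on the fit. Under 11 alternatives, the EGR1 difference passed in 6 (adjusted p from 0.00911 to 0.666), that of ATF3 in 6 (from 0.0165 to 0.274) and that of JUNB in 7 (from 0.00587 to 0.191).

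A further limma fit over all 8 arrays asked whether the change with treatment differed between the genotypes. None of the 10 members passed the adjusted threshold, where 0.94% of 28947 probes passed with the larger change in p53+/+ cells and 0.746% with the smaller. At an unadjusted p under 0.05 the fit called 1 member, JUN, and 4949 probes. The interaction of JUN was -1.91 ± 0.64 (SE, adjusted p = 0.202). This fit uses the array labelled p53+/+ 0 h and cannot be made without it. On simulated data, in which only a small share of the 28947 probes was changed, it recovered 1% of log2 changes of 2 and 56% of changes of 4. The genotype fit recovered 63% and 82%. Both real fits called more probes than the simulation changed, so these rates describe the simulated setting only.

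Other immediate early genes were read from a list of 36 genes without the members, of which 34 were above background on at least 1 array. In p53-/- cells 6 of 32 measured were at least 2-fold higher at 12 h, 5 of 33 at 24 h and 15 of 34 at 48 h, and 4, 3 and 1 were lower. Of all genes 3.75%, 7.22% and 10.6% were higher and 4.95%, 5.15% and 7.31% lower. The list's median log2 change was 0.098, 0.39 and 0.60. EGR2, a relative of EGR1, read -5.27 (not above background), -3.94, -2.94 and -1.55 at the 4 times, so it was at least 13.0-fold higher at 48 h. ARC, a synaptic plasticity gene induced by the same pathways, was at least 7.40-fold higher at 48 h, and KLF10, a zinc finger factor induced by TGF-beta, was 2.34-fold higher. PLK2, a polo-like kinase gene, rose from -0.46 to 1.23, 1.81 and 2.27. ZFP36L2, which promotes decay of AU-rich transcripts, fell by at least 2-fold at all 3 times. These counts and changes rest on the p53-/- 0 h array. The array labelled p53+/+ 0 h read 2.33 for KLF10, against 2.32, 2.32 and 2.19 on the treated p53-/- arrays. For ZFP36L2 it read 1.15, against 1.08, 1.32 and 1.31, and for PLK2 1.49. For EGR2 and ARC it read -4.03 and -4.37, where the p53-/- 48 h array read -1.55 and -2.36.

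In the genotype fit 5 of the 34 genes were higher in p53+/+ cells and 4 lower by limma's adjusted p, where 10.6% and 7.4% of all probes were. BTG2, an antiproliferative gene, was higher by 5.26 ± 0.38 (SE, adjusted p = 0.000736), the polo-like kinase gene PLK3 by 3.13 ± 0.19 and PLK2 by 2.22 ± 0.28. PHLDA1 was higher by 1.13 ± 0.27, and IER5, an immediate early gene that promotes heat shock factor activity, by 0.96 ± 0.22. Both BTG2 and the PLK genes are known p53 targets. KLF2, a quiescence-associated zinc finger factor, passed as lower (adjusted p = 0.00752), was 4.52-fold lower at 12 h, and was not above background in p53+/+ cells at 24 and 48 h, where it was at least 5.52- and 7.63-fold lower. GEM, which encodes a small GTPase, passed as lower (adjusted p = 0.00759) and was not above background on any treated p53+/+ array. Its dim reading was 3.94-fold below the p53-/- array at 12 h, and it was at least 4.46- and 11.5-fold below at 24 and 48 h. GADD45B was lower by -1.40 ± 0.26. HES1, a Notch effector, passed as lower (adjusted p = 0.0183) and was not above background in p53+/+ cells at 24 and 48 h, where its dim readings were 2.36- and 2.28-fold lower. Against the array labelled p53+/+ 0 h, BTG2, PLK3, PLK2 and IER5 were at least 2-fold higher and GEM, GADD45B and KLF2 at least 2-fold lower at all 3 times.

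Of 20 other bZIP genes whose products can pair with AP-1 proteins, 19 were measured. In p53-/- cells 3 of 18 rose at least 2-fold at 12 h, 4 of 19 at 24 h and 7 of 19 at 48 h, with 1, 0 and 0 falls and medians of -0.057, 0.073 and 0.35. Of all genes 3.75%, 7.22% and 10.6% rose and 4.95%, 5.15% and 7.31% fell. ATF5, a stress-response factor, was 3.62-, 4.23- and 3.89-fold above 0 h, and BATF3, a JUN partner of immune cells, 3.63-, 2.78- and 2.06-fold. These counts and changes rest on the p53-/- 0 h array. The array labelled p53+/+ 0 h read 0.15 for BATF3, against 0.19, -0.19 and -0.63 on the treated p53-/- arrays. For ATF5 it read 0.83, against 1.21, 1.43 and 1.31. In the genotype fit BATF2 (1.97 ± 0.44 SE) and MAFA (1.79 ± 0.33) were higher in p53+/+ cells, and JDP2 (-2.07 ± 0.27) and ATF5 (-0.74 ± 0.19) lower. These are 2 of 19 in each direction, where 10.6% of all probes passed as higher and 7.4% as lower. JDP2 is a repressor that dimerises with JUN proteins. Against the array labelled p53+/+ 0 h, BATF2 rose and NRL fell by at least 2-fold at all 3 times in p53+/+ cells.

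Of 18 measured kinases and transcription factors upstream of immediate early genes, 0, 1 and 0 were at least 2-fold higher and 0, 0 and 2 lower in p53-/- cells at the 3 times, with medians of -0.072, -0.12 and -0.25. Of all genes 3.75%, 7.22% and 10.6% were higher and 4.95%, 5.15% and 7.31% lower. MAP2K4, a kinase that activates JNK, was higher in p53+/+ cells by 1.38 ± 0.24 (SE) and RPS6KA1, a kinase downstream of ERK, by 0.92 ± 0.18, both past limma's adjusted threshold, and 0 of the 18 were lower. That is 2 of 18 higher, where 10.6% of all probes passed as higher and 7.4% as lower. The arrays measure transcripts and not the phosphorylation through which most of these proteins act.

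The 22 AP-1 target genes moved both ways. In p53-/- cells 3 of 21 measured rose by at least 2-fold at 12 h, 4 of 21 at 24 h and 4 of 22 at 48 h. At each of these times 4 fell, and the medians were 0.16, 0.064 and 0.053. Of all genes 3.75%, 7.22% and 10.6% rose and 4.95%, 5.15% and 7.31% fell. LIF, a cytokine, was 15.0-, 8.04- and 7.82-fold above 0 h, and HBEGF, an EGF receptor ligand, 4.32-, 4.61- and 9.03-fold. HMOX1, which encodes a haem-degrading enzyme, fell by 2.39-, 2.14- and 2.60-fold. MMP10, a matrix metalloproteinase, was at least 3.01-fold lower at each treated time, where it was not above background. These counts and changes rest on the p53-/- 0 h array. The array labelled p53+/+ 0 h read 2.28 for LIF, against 0.20, -0.70 and -0.74 on the treated p53-/- arrays. For HBEGF it read -0.41, against -1.37, -1.27 and -0.30, and for HMOX1 1.09, against 0.96, 1.12 and 0.83. For MMP10 it read -3.69, near the -3.93 of the p53-/- 0 h array. In the genotype fit IVL, which encodes the cornified envelope protein involucrin, was higher in p53+/+ cells by 6.12 ± 0.48 (SE), SPRR1B, of the same envelope, by 3.09 ± 0.54, LIF by 2.20 ± 0.29 and AREG, an EGF receptor ligand, by 1.57 ± 0.20. CXCL8, the neutrophil chemokine interleukin 8, passed as lower (adjusted p = 0.000241 in limma) and was not above background on any treated p53+/+ array, at least 3.23-, 2.67- and 2.89-fold below the p53-/- arrays. MMP13, a collagenase, passed as lower (adjusted p = 0.00908) and was likewise dim there, at least 2.57- and 1.77-fold lower at 24 and 48 h. PLAUR, the urokinase receptor gene, was lower by -0.88 ± 0.22. In this fit 4 of the 22 targets passed as higher and 3 as lower, where 10.6% and 7.4% of all probes did. Against the array labelled p53+/+ 0 h, IVL and AREG rose and CXCL8, MMP1 and PLAUR fell by at least 2-fold at all 3 times in p53+/+ cells.

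**Figure D5:**
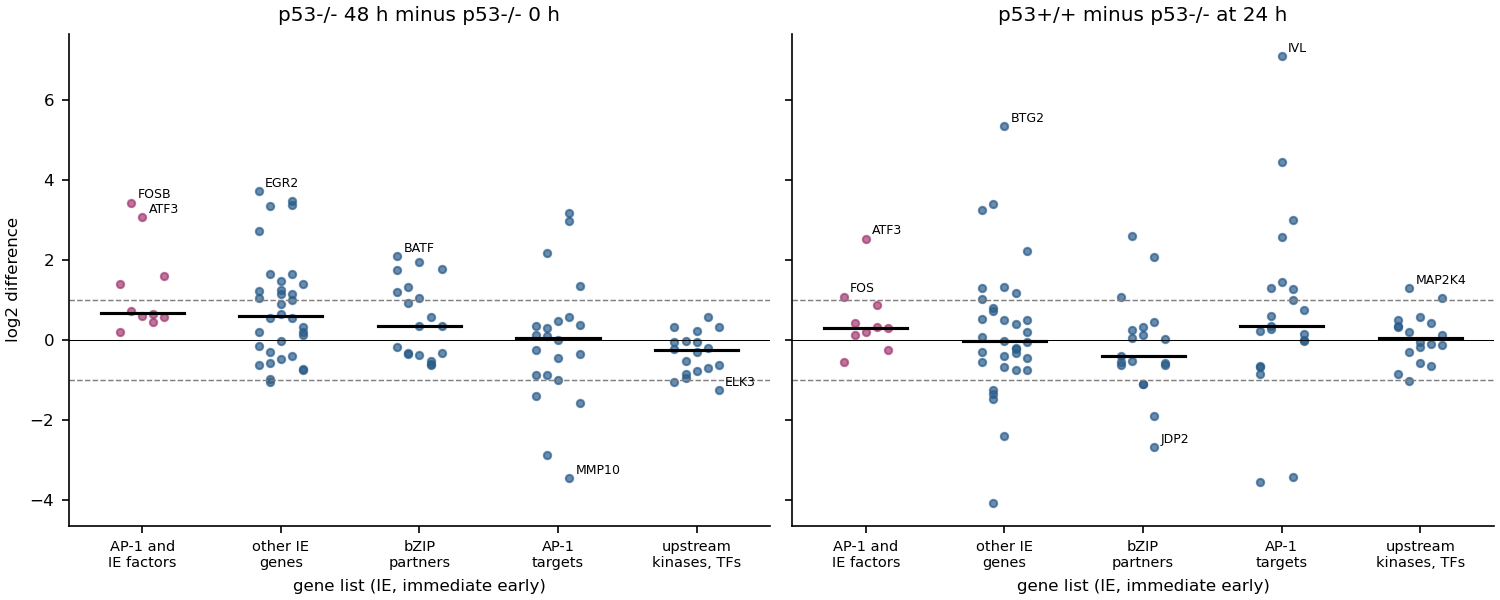
Log2 difference (vertical axis) of every measured gene of the members and of the 4 other lists, at 48 h against 0 h in p53-/- cells (left) and between p53+/+ and p53-/- cells at 24 h (right). Each point is a gene, black bars are list medians, dashed lines mark 2-fold and the gene farthest from 0 in each list is named (for the members, the farthest pair). On the left the medians are 0.68 for the members and 0.60 for the other immediate early genes, with -0.25 for the upstream kinases and factors.

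The genes whose levels ran most like those of the 3 widest-ranging members were found among 11827 other genes well above background on all 8 arrays, by the root mean square difference of the 8 log2 levels after centring each gene. ATF3 was nearest to PLK2 (0.35), HES6 (0.42) and FCMR (0.45), where ATF3 itself had a root mean square of 1.49 about its mean. FOSB (0.96 about its mean) was nearest to ZNF10 (0.50), DDIT3 (0.55) and PPP1R15A (0.56). DDIT3 encodes the stress-response bZIP factor CHOP and read 0.56 at 48 h in p53-/- cells against -1.80 at 0 h, and -1.61, -1.02 and -1.28 in treated p53+/+ cells. FOS (0.79) was nearest to ERICH2 (0.18), VWA5A (0.20) and TSPAN13 (0.20). Among the members themselves JUND and IER3 were the closest pair, at 0.15, and JUNB and ATF3 the farthest, at 1.81. These values describe 8 arrays that share 1 slide and the same scaling.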

How the data were processed

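RNA from MCF10A p53+/+ and p53-/- cells was hybridised to 8 single-colour Agilent arrays, 1 per genotype and time. The authors deposited Agilent Feature Extraction (10.7.3.1) output with the grid build hg19. The deposited values are processed signals, background-corrected intensities on a linear scale, and no normalization between arrays is given in the sources used here. The series table that the authors deposited held the same intensity values (503808 of 503808 equal within a relative tolerance of 1e-05). Groups came from the sample labels.

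Outlier spots were left out (14 of 42405 probes lost), spots of a probe were averaged as log2 signal minus log2 of the 75th percentile, and 27227 probes (64.2%) were named through RefSeq genes of GRCh38.p14. A gene not above background on an array was raised to the lowest level above background there if it read below that, which makes its fold a bound. A dim gene that read above that level kept its own reading. No fold was given where the bound turned the direction. With 1 array per group no single time could be tested. For the fits, limma 3.58.1 took the 28947 probes that some array measured above background (R 4.3.3, 4 residual degrees of freedom) and was tested on simulated data, where it called 9 unchanged probes for genotype and 4 for the interaction. Python 3.11.15 was used otherwise. Named genes of the other lists were up to 4 per direction that changed by at least 2-fold at all 3 times in a genotype or passed the genotype fit. IER5 in the genotype fit and DDIT3's values were added after their values were seen. Some genes that met these rules are not reported here.

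The members and lists were chosen with earlier results of these data known. Alternatives were other scalings, normexp correction of the median spot signal with an offset of 50, the mean of a gene's probes, the other 0 h array as baseline, each time left out, time as a block and other filters on dim probes. Precision is limited by how few arrays there are.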

Additional observations from a re-analysis of the deposited data

Results flagged for a closer look

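For FOSB, JUN and FOSL1 the difference from 0 h was above 0 at all 3 treated times in p53-/- cells and below 0 at all 3 in p53+/+ cells, and all 3 results rest on the array labelled p53+/+ 0 h, which stood with the p53-/- arrays. FOSB differed from 0 h by -0.43, -0.31 and -1.28 on the log2 scale in p53+/+ cells. In p53-/- cells it differed by 0.85, 1.14 and 3.44, and the mean difference between genotypes was -2.48. JUN differed from 0 h by -1.19, -0.45 and -0.039 and by 1.30, 1.15 and 1.60, a mean difference of -1.91. FOSL1 differed from 0 h by -0.14, -0.27 and -0.45 and by 0.66, 0.31 and 0.61, a mean difference of -0.81. The p53+/+ value of JUN at 48 h is within its technical SD of 0.064, no FOSL1 value reached 2-fold, and in p53+/+ cells FOSB did so at 48 h and not at 12 or 24 h. The opposite directions as such were not tested. The interaction of genotype and treatment in the limma fit had adjusted p = 0.422 for FOSB, 0.202 for JUN and 0.344 for FOSL1. Against the p53-/- 0 h array, the p53+/+ arrays were higher for all 3 genes at all 3 times (FOSB by 1.45, 1.57 and 0.61, JUN by 0.17, 0.91 and 1.32, FOSL1 by 0.66, 0.53 and 0.35).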

How the results depend on the processing

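With the p53-/- 0 h array as baseline FOSB at 48 h in p53+/+ cells was 0.61 and JUN at 12 h was 0.17, in place of falls. With the array labelled p53+/+ 0 h as baseline of the p53-/- arrays, FOSB at 24 h was -0.75, JUN at 12 and 24 h -0.062 and -0.21, and ATF3 at 12 h -0.72, in place of rises. The median change of the 10 members averaged over the 3 times was 0.69 in p53+/+ cells, and became 0.54 with median scaling, 0.27 without scaling, 0.87 with the other baseline and 0.50 without 48 h. In p53-/- cells it was 0.46, and became 0.85 without scaling, 0.81 with spike-in scaling, 0.082 with the other baseline and 0.54 and 0.28 without 12 h and without 48 h. The median genotype difference was 0.20, and became -0.39 without scaling, 0.071 with median scaling, 0.084 with quantile normalization, and 0.059 and 0.40 without 12 h and without 48 h. Without scaling the median of all genes shifted by -0.77 to 0.53 between arrays, so changes are relative to it. Scaling on the spike-ins was not possible for the p53+/+ 48 h array.

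The genotype fit called 5201 probes, and 9393 without scaling, 9894 with normexp, 12536 with no filter on dim probes, and 2670, 292 and 2571 without 12, 24 and 48 h. It called 3 members, and 1 with time as a block (EGR1), 0 without 12 h, 0 without 24 h and 1 without 48 h (ATF3). Without scaling and with spike-in scaling JUN was called (adjusted p = 0.0276 and 0.0207 in limma) and ATF3 and EGR1 were not. The interaction fit called 488 probes, and 1296 without scaling, 1251 with normexp, 802 with spike-in scaling, 60 with time as a block, and 42, 0 and 0 without 12, 24 and 48 h; it called no member under any of these. The cause of these shifts was not tested.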
